A study of Mus musculus with 18 samples.

Results

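The genes here are 10 markers of successive stages of the oligodendrocyte lineage, measured in cells sorted as motor neurons (MNs) from mouse spinal cord. They were taken by name from the 27179 genes of the stage and regional comparisons and the 35729 transcripts of the mutant comparison, and where a gene had several transcripts the one with the highest base mean stood for it. Olig1, Olig2, Nkx2-2 and Pdgfra stand for precursors, Neu4, Gpr17 and Bcas1 for cells committed to differentiation, and Enpp6, Myrf and Aspa for newly myelinating cells. All 10 were found in each comparison.

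The 18 RNA-Seq samples fall into 5 groups. Brachial MNs of e12.5 embryos labelled wildtype (6 samples) were sorted by the Mnx1-GFP reporter, whose GFP is made under control of an MN homeodomain gene. Brachial MNs of e12.5 Hoxc8 MNΔ embryos (3 samples) carried the same reporter. In these embryos floxed Hoxc8 was removed by Cre made from the Olig2 locus in MN progenitors. The paper gives the controls of these mutants as homozygous for floxed Hoxc8. The sample labels do not mark which of the samples labelled wildtype these are. The p8 cells came from brachial, thoracic and lumbar cord of Chat-IRES-Cre::Ai9 animals labelled wildtype (3 samples per region), and were sorted by tdTomato, which stays on in any cell that has once made Cre from the Chat locus. The paper states that several cords were pooled per replicate for the e12.5 Mnx1-GFP embryos and the p8 animals. It states no pooling for the mutants and their controls. The brachial piece was cut to other segments for the mutant comparison than for the comparison of stages, and which of the 6 control samples came from which dissection is not labelled. Reporter, age and sort differ together between e12 and p8 and cannot be told apart.

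Oligodendrocytes wrap axons of the central nervous system in myelin. In the ventral cord they arise from the same Olig2-positive progenitor domain that earlier gives rise to MNs, so Olig2 and its neighbour Olig1 mark a shared origin as well as the glial lineage. Precursors divide in response to PDGF through the receptor Pdgfra. On commitment they switch on Gpr17 and Bcas1, and with the factor Myrf they turn on the genes of myelin. Nkx2-2 is also made in the most ventral neuronal progenitors of the cord, next to the MN domain.

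Coordinates of the members are given on GRCm38.p6. Olig2 (chr16:91225550-91228677) and Olig1 (chr16:91269769-91271939) are neighbours, 41092 bases apart. Nkx2-2 (chr2:147176485-147195434) and Bcas1 (chr2:170343973-170427911) are both on chromosome 2. Pdgfra lies at chr5:75151322-75198206, Neu4 at chr1:94020493-94028334, Enpp6 at chr8:46939197-47096762, Myrf at chr19:10208271-10240777 and Aspa at chr11:73304987-73326876.

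RefSeq promoter sequence of GRCm38.p6 was at hand for 6 of the 10 members (Neu4, Nkx2-2, Pdgfra, Enpp6, Aspa and Olig2). The 250 bases before each start were searched on both strands for the E-boxes CAGCTG and CAGATG, which basic helix-loop-helix factors such as Olig1 and Olig2 can read, for ACAAAG and ACAATG of the Sox factors, for CTGGCAC and CTGGTAC of Myrf, and for CACTTGA of Nkx2 factors. None of these motifs contains another. Shown are the members with the greatest change between the stages among these genes (Enpp6), another enzyme of the same stage (Aspa), the member with the smallest change (Nkx2-2) and the locus that drives Cre in the mutants (Olig2), each cut to the bases before the start that no annotated exon covers, 5′ to 3′ on the gene's strand, with motif matches in capitals.
Enpp6 (chr8:46986637-46986886, + strand): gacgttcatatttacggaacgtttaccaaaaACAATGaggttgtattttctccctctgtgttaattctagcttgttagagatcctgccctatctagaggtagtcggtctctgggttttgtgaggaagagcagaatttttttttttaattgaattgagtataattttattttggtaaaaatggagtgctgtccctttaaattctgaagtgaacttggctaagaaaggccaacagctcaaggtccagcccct
Aspa (chr11:73324638-73324887, - strand): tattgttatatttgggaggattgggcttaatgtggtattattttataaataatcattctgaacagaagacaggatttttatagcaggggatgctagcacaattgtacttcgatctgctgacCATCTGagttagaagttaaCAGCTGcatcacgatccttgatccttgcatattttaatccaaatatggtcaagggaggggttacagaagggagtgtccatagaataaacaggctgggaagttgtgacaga
Nkx2-2 (chr2:147186456-147186652, - strand): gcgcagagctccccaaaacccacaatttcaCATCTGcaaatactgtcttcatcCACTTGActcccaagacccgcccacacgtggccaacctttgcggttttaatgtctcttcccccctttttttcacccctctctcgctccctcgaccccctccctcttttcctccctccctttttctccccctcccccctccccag
Olig2 (chr16:91225300-91225456, + strand): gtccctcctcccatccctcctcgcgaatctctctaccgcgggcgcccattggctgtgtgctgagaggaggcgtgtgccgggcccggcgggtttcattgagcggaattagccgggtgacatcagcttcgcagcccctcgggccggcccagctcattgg

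The Enpp6 window lies within the coordinates given for the gene above, so its start is not the outer end of the gene. In it ACAATG lay 219 to 214 bases before that start. In that of Aspa, which lies within an intron of longer Aspa transcripts, CAGATG read as CATCTG on the gene's strand lay 129 to 124 bases before the start and CAGCTG 110 to 105 bases before it. The Nkx2-2 stretch likewise lies within an intron of longer Nkx2-2 transcripts, and within Nkx2-2os on the other strand. It held CAGATG (220 to 215, as CATCTG) and CACTTGA (197 to 191). Olig2 had no match in the stretch shown, and its ACAATG, 68 to 63 bases before the start, falls in bases that another transcript holds as exon. The Pdgfra window held CAGATG, but it lies within the annotated gene and the sequence at its end matched no annotated transcript, so no position is given and it is not shown. Neu4 had no match. Either E-box was found in 3 of the 6 windows and in 25.5% of 32851 promoters of the same length. For single motifs the share over all promoters was 13.0% for CAGCTG, 14.4% for CAGATG, 16.5% for ACAAAG, 10.7% for ACAATG, 4.19% for CTGGCAC, 1.83% for CTGGTAC and 2.68% for CACTTGA.

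The deposited tables give, for each gene, a mean over all samples and a fold change with its standard error, and no value per sample. Levels per group below are therefore solved from those 2 quantities, in normalized counts (read counts divided by a size factor for the depth of each library), and the error is the 95% interval of the fold change. Relative depth was read from genes with a single read in 1 library. Size factors of the 6 e12 libraries were 1.32 to 1.71, whereas among the 3 p8 brachial libraries the shallowest was at 0.0838 and the deepest at 1.45, a 17.3-fold range. In the regional comparisons each region had 1 shallow library, at 0.160 (brachial), 0.228 (thoracic) and 0.509 (lumbar) beside deepest libraries of 2.39 to 2.74. Among MN markers 6 of 9 were higher at e12 and 0 of 9 higher at p8 at an adjusted p under 0.05. Mnx1, the gene of the embryonic reporter, went from 3504 to 5.80 normalized counts and Slc18a3, the vesicular acetylcholine transporter, from 669 to 25.7. The p8 cells thus carried little RNA of these genes, and the paper reports low Mnx1-GFP after birth. Prph of the same list was at 2210 and 796 (adjusted p = 0.291, DESeq2 Wald test).

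The comparison of stages asked which genes brachial MNs express at e12 and at p8. All 10 lineage markers were higher at p8, by 7.76-fold (Nkx2-2) to 8091-fold (Enpp6). Among all 18787 genes tested, 23.0% were higher at p8 and 24.8% higher at e12 at an adjusted p under 0.05. With a fold over 4 besides, 14.8% were higher at p8, and all 10 members passed that threshold as well, in normalized counts. The summed level of all genes was 15398300 at e12 and 36211000 at p8, so rises are smaller as shares of that sum. Nkx2-2 went from 0.000415% to 0.00137% of it. The median log2 fold change (e12 over p8) was -8.78 over the members and -0.04 over all genes. These are bulk samples, in which a different number of cells of a type and a different amount of RNA per cell cannot be told apart. Adjusted p-values were computed here by Benjamini-Hochberg from the deposited p of the DESeq2 Wald test, over all genes of the table.

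Among the transcription factors of the precursor stage, Olig1 had the largest change. Olig1 stood at 35.2 normalized counts in the embryo and at 21819 at p8, a log2 fold change of -9.28 (95% interval -10.34 to -8.21, adjusted p = 9.09e-63). Olig2, which specifies both MNs and oligodendrocytes, rose from 55.7 to 1945 (-5.13, -6.07 to -4.18, adjusted p = 8.72e-25). The intervals of these neighbouring genes do not overlap. Per kb of exon the level of Olig1 was 0.738 times that of Olig2 at e12 and 13.1 times at p8. Nkx2-2, which helps to time differentiation and is also a neuronal progenitor gene, rose from 63.9 to 495 (-2.96, -4.60 to -1.31, adjusted p = 0.00128), the smallest and least precise change of this group.

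Pdgfra, the receptor through which PDGF drives precursor division, rose from 68.9 to 1915 normalized counts, or 27.8-fold (log2 fold change -4.80, -5.92 to -3.67, adjusted p = 8.91e-16). Its interval overlapped those of Olig2 and Nkx2-2. Gpr17, a receptor of the cells between precursor and myelinating stage that holds back maturation, rose 313-fold, from 42.9 to 13422 (-8.29, -9.76 to -6.82, adjusted p = 6.23e-27).

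Bcas1, a marker of cells beginning to myelinate, had the highest level per kb of exon at p8 (19682). It went from 44.0 to 74301 normalized counts (log2 fold change -10.72, -11.87 to -9.57, adjusted p = 2.51e-72). Myrf, the membrane-bound factor that activates myelin genes, rose from 69.8 to 3685 (-5.72, -6.61 to -4.83, adjusted p = 6.80e-35). The change of Myrf, placed here with the latest stage, was thus closer to those of Olig2 and Pdgfra than to those of Enpp6 and Aspa.

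The 3 enzymes were nearly without reads at e12. Neu4, a sialidase, was at 0.267 normalized counts at e12, a sum of 1.60 over the 6 samples, and at 1593 at p8 (log2 fold change -12.54, -15.39 to -9.70, adjusted p = 9.24e-17). At 2 counts the interval for counting error alone runs from 1323-fold to 39456-fold. Enpp6, a choline phosphodiesterase made on the onset of myelination, went from 1.21 to 9752 (-12.98, -14.44 to -11.52, adjusted p = 1.11e-65). Aspa, which cleaves N-acetylaspartate into acetate and aspartate, went from 0.744 to 1268 (-10.74, -12.63 to -8.84, adjusted p = 5.16e-27). Their e12 sums over 6 samples were 7.23 and 4.46 normalized counts, so that these folds rest on few reads.

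**Figure D1:**
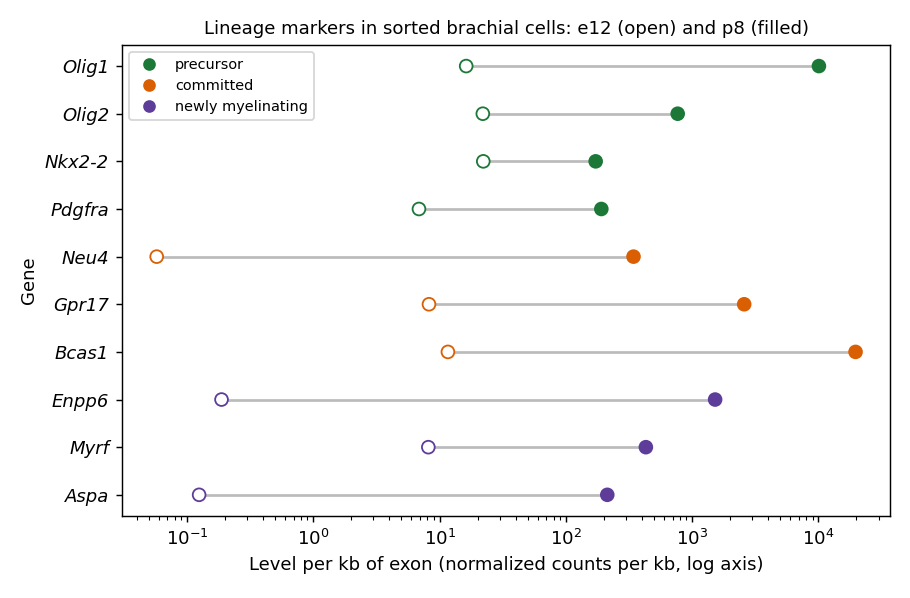
Levels of the 10 members in sorted brachial cells, in normalized counts per kb of exon on a log axis, at e12 (open) and p8 (filled), coloured by lineage stage. Neu4, Enpp6 and Aspa lie between 0.0576 and 0.188 at e12 while the other 7 lie between 6.88 and 22.2, and at p8 Bcas1 (19682) and Olig1 (10092) are highest.

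Per kb of exon the members fell into 2 sets at e12. Nkx2-2 (22.2), Olig2 (22.0), Olig1 (16.3), Bcas1 (11.7), Gpr17 (8.25), Myrf (8.16) and Pdgfra (6.88) were within 1 order of magnitude, and Enpp6 (0.188), Aspa (0.125) and Neu4 (0.0576) lay far under them. At p8 the order was Bcas1 (19682), Olig1 (10092), Gpr17 (2584), Enpp6 (1521), Olig2 (769), Myrf (430), Neu4 (343), Aspa (213), Pdgfra (191) and Nkx2-2 (172). The order at p8 did not follow the order of the lineage, since Pdgfra and Nkx2-2 of the precursor stage stood last and Olig1 of the same stage second. Spread over samples is not given for a single group, so neighbours in either order were not tested.

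By stage of the lineage, the median log2 fold change was -4.96 over the 4 precursor markers, -10.72 over the 3 committed markers and -10.74 over the 3 newly myelinating ones. Together the members made up 0.00248% of the summed level of all genes at e12 and 0.360% at p8. Of the p8 share, the committed markers took 0.247%, of which Bcas1 alone was 0.205%. The precursor markers took 0.0723% (Olig1 0.0603%) and the newly myelinating ones 0.0406% (Enpp6 0.0269%). These shares are not divided by exon length and rest mostly on the genes named, so they do not rank the stages. A list of 20 genes of mature oligodendrocytes went from 0.0113% to 44.3% of the summed level, led by Mbp, the basic protein of myelin, at 13236900 normalized counts at p8.

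**Figure D2:**
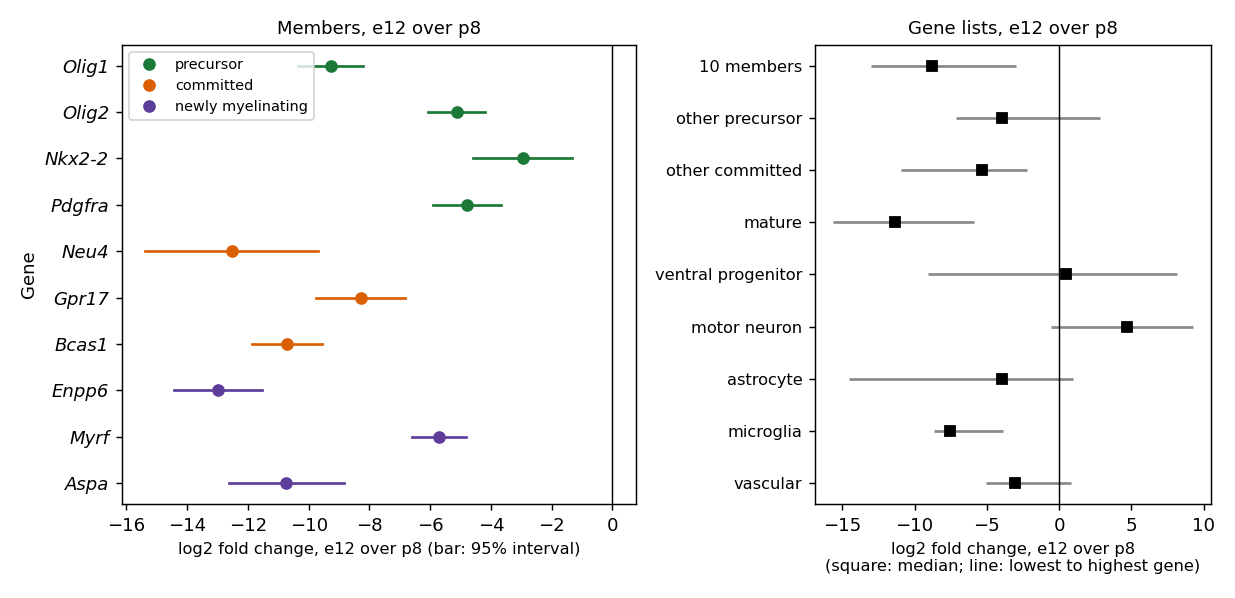
Log2 fold changes between stages (e12 over p8, values under 0 are higher at p8), on the left for each member with its 95% interval and on the right as the median and full range of each gene list. All 10 members lie left of 0, from -2.96 (Nkx2-2) to -12.98 (Enpp6), while the MN list has its median at 4.70.

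Other genes of the lineage showed how far this pattern reached. Of 12 further precursor genes 7 were higher at p8 and 2 higher at e12, with a median log2 fold change of -3.92. Sox10, a factor needed throughout the lineage, rose from 77.2 to 5287, whereas the proteoglycan Vcan fell from 7894 to 1122 and Cacng4, an auxiliary subunit of AMPA receptors, from 1344 to 214. Ptprz1 was at 1898 and 2438 (adjusted p = 0.561). Of the committed list 11 of 11 genes tested were higher at p8 (median -5.36), among them Sirt2, a tubulin deacetylase, at 1262 and 134734, the kinase Fyn at 3291 and 15685, Tmem163 at 527 and 3225 and Nkx6-2 at 163 and 3795. All 20 mature genes were higher at p8, with a median of -11.36.

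Regulators of differentiation divided. Among 12 activators, a list that holds Olig1 itself, 8 were higher at p8 and 2 at e12. Zeb2 rose from 558 to 6004, the chromatin remodeller Smarca4 fell from 18575 to 2976, and Chd7 was at 3286 and 1906 (adjusted p = 0.157). Of 10 inhibitors of differentiation 3 were higher at p8 and 4 at e12. Lingo1, an inhibitor of myelination that neurons make too, fell from 3802 to 81.1, Id2 rose from 725 to 2858, Nfatc3 rose from 402 to 1089, and the receptor Notch1 was at 1205 and 1809 (adjusted p = 0.417). Receptors and ligands that act on precursors were higher at e12 in 8 of 15 cases and at p8 in 4, with Adgrg1 going from 6160 to 1144 and Ptch1 from 1513 to 362.

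Around Nkx2-2, 5 of 6 genes listed for V3 interneurons, which descend from the Nkx2-2 domain, and for their progenitors were higher at e12. Slc17a6, the glutamate transporter of excitatory neurons, fell from 1306 to 20.5 and Uncx from 374 to 0.538. Hes5 fell from 228 to 40.6. Nkx2-9, a close relative of Nkx2-2, went the other way, from 0.455 to 243. Of 18 ventral progenitor genes 8 were higher at e12 and 2 at p8. Nes, an intermediate filament of progenitors, fell from 2354 to 182, while Vim (2614 and 2060, adjusted p = 0.819) and Fabp7 (2280 and 1856, adjusted p = 0.687) were not called.

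Family relatives of the members, 20 with a test, were higher at p8 in 9 cases and at e12 in 4. Enpp2, autotaxin, rose from 522 to 22652, and Csf1r, a receptor kinase related to Pdgfra that marks microglia, from 33.5 to 13297. Bhlhe22, a bHLH factor of neurons, fell from 1316 to 151, and the lysosomal sialidase Neu1 was at 731 and 1461 (adjusted p = 0.300). In the N-acetylaspartate pathway, Nat8l, the enzyme that makes N-acetylaspartate, fell from 1603 to 550, and Rimklb, which joins it to glutamate, from 2702 to 342. Acss2, which turns acetate into acetyl-CoA, rose from 607 to 3968 alongside Aspa. Rimkla was at 799 and 1544 (adjusted p = 0.193).

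Markers of other cell types were looked at beside the members. Microglia markers were higher at p8 in 8 of 8 cases (summed level 90.2 at e12 and 21866 at p8), astrocyte markers in 5 of 7 tested, vascular markers in 5 of 9 (667 and 3722) and Schwann cell markers in 4 of 7 with 1 higher at e12 (5150 and 2500). The summed level of the astrocyte list, 7673 at e12 and 154391 at p8, was carried by S100b (6.24 and 146257), which oligodendrocytes make too, and without it the sums were 7666 and 8134. Of the other astrocyte markers of high base mean, Slc1a2 was at 5604 and 514 with no p in the table, Fgfr3 at 986 and 1224 (adjusted p = 0.731), and Gfap, the filament protein of astrocytes, rose from 0.385 to 3146. The Schwann cell sum at e12 was carried by Foxd3 (3946, and 34.5 at p8) and Pou3f1 (999 and 961), an MN pool marker in the paper. Pmp22 and Egr2 of that list rose, from 36.4 to 741 and from 24.5 to 416. The microglia markers Csf1r and Cx3cr1 stood at 13297 and 3368 at p8. The part of these cell types in the change of the members was not tested. The 9 MN markers made up 0.0573% of the summed level at e12 and 0.00329% at p8. The paper names a small fraction of sorted cells that are not MNs as a possible contributor to differences between the stages.

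The regional comparisons asked which genes set brachial, thoracic and lumbar MNs apart at p8. They share the same 9 samples, and the brachial ones also enter the comparison of stages. Of the 10 members 0 were called in each of the 3 comparisons by the adjusted DESeq2 p, and 0 had an unadjusted p under 0.05. Over all genes 0.261% were called for the brachial, 0.011% for the thoracic and 0.0219% for the lumbar region, and at an unadjusted p under 0.05 6.54%, 1.45% and 2.88%. The smallest p among the members was 0.288, unadjusted, for Nkx2-2 in the thoracic DESeq2 comparison.

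Regional levels rest on the size factors of the regional comparisons. They cannot be set against levels of the comparison of stages, in which Olig1 was at 21819 in p8 brachial cells. In brachial, thoracic and lumbar cells, in that order, Olig1 was at 11912, 11505 and 12600 normalized counts and Olig2 at 1112, 1691 and 1457. Per kb the ratio of Olig1 to Olig2 was 12.54, 7.96 and 10.1. Nkx2-2 was at 280, 376 and 240, with a log2 fold change of 0.53 for thoracic over the others (-0.44 to 1.497). Pdgfra was at 1068, 1134 and 1031, the precursor receptor thus lying within a narrow range, though its intervals were wide (-1.60 to 1.82 for thoracic).

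Gpr17 had the largest upward value, at 7868, 12160 and 6362 (log2 fold change 0.75 for thoracic, -0.85 to 2.34). Neu4 had the largest downward one, at 864, 803 and 459 (-0.88 for lumbar, -2.93 to 1.17). Neither was separable from 0. Bcas1 was at 40210, 35475 and 40649 and Enpp6 at 5403, 5461 and 4651. Myrf was at 2043, 2172 and 2038, and Aspa at 710, 999 and 1111 (-0.58 for brachial, -1.88 to 0.72).

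**Figure D3:**
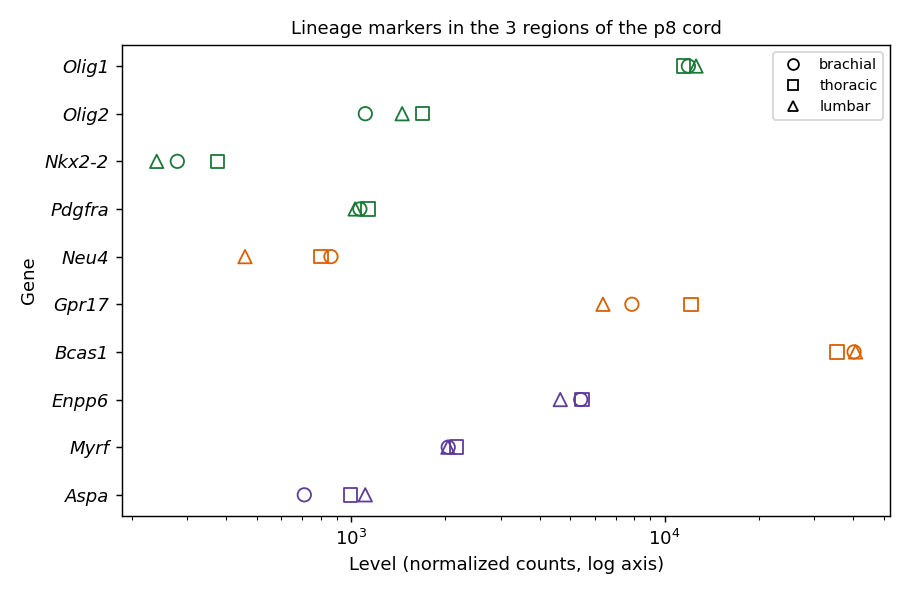
Levels of the members at p8 in brachial (circle), thoracic (square) and lumbar (triangle) cells, in normalized counts on a log axis, coloured by lineage stage. The genes run from Nkx2-2 (240 to 376) to Bcas1 (35475 to 40649), and the ranges of neighbouring genes overlap in part, as those of Neu4 (459 to 864) and Aspa (710 to 1111) do.

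Standard errors of the members ran from 0.451 to 1.12 on the log2 scale, and the 95% intervals reached at least 1.99-fold (Enpp6, brachial) and up to 7.61-fold (Neu4, lumbar). Differences up to these bounds are not excluded by the intervals, and the values do not show that the regions are alike.

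**Figure D4:**
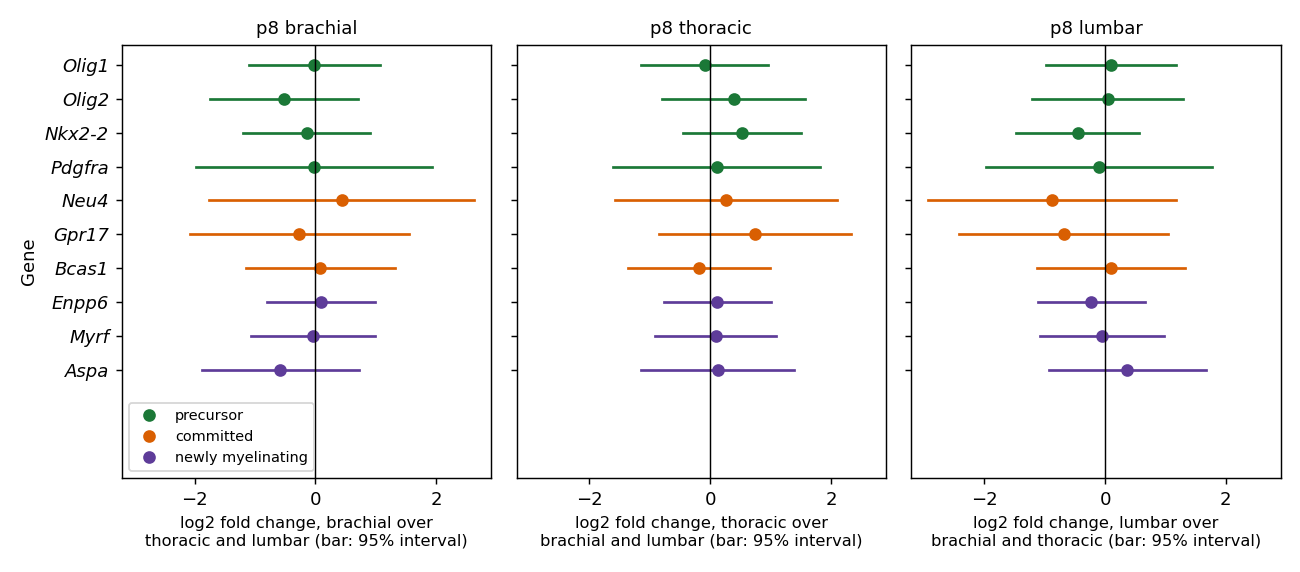
Log2 fold changes of the members for each region over the other two at p8, with 95% intervals. Every interval crosses 0, and the values run from -0.88 (Neu4, lumbar) to 0.75 (Gpr17, thoracic).

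The members were also summed by stage of the lineage, with no test of the sums. Precursor markers summed to 14371, 14705 and 15328 normalized counts, committed markers to 48941, 48438 and 47471 and newly myelinating markers to 8156, 8631 and 7799 in brachial, thoracic and lumbar cells. Olig1 held most of the precursor sum (11912 in brachial cells) and Bcas1 most of the committed sum (40210), so these sums mainly follow those genes. The mature list summed to 8579240, 6761800 and 8625520, with 0 of its 20 genes called in any region. Microglia markers had medians of -0.38, 1.05 and -1.09 in the 3 comparisons with 0 of 8 called. Each region is part of the reference of the others, so signs in these comparisons are not independent. The part of microglia in the members' values was not tested. Schwann cell markers summed to 1805, 2278 and 12393.

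For 1 gene of each lineage stage, the genes with the nearest profile were sought among 9222 genes whose base mean was 100 or more, by the Euclidean distance of the 4 log2 fold changes of the stage and regional comparisons. Nearest to Pdgfra were Clgn (distance 0.113), Frmd8 (0.218) and Stxbp3 (0.223). For Myrf they were Maob (0.108), Ell2 (0.165) and Scd1 (0.206), the last a fatty acid desaturase. For Gpr17 they were Trem2 (0.528), C1qc (0.531) and Ly86 (0.594), genes known from microglia, and at a greater distance than those nearest to Pdgfra and Myrf. These profiles rest on overlapping samples and are a description.

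The mutant comparison asked which transcripts depend on Hoxc8 in brachial MNs at e12.5. Its values stand as control over mutant, so that a positive value is higher in controls. The 3 control libraries appear to be part of the 6 e12 libraries of the comparison of stages. Of genes with a single read in a control library, 33 of 33, 37 of 37 and 54 of 54 pointed to 1 library of the stage table each. The e12 group of the comparison of stages may thus hold embryos with floxed Hoxc8. At an unadjusted p under 0.05, 1 of the 9 members with reads was called and 0 after adjustment, beside 0.871% of all 19634 transcripts unadjusted (0.453% higher in controls) and 0.0357% adjusted.

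That member was Olig2, whose locus also carries the Cre of the mutants. Its base mean was 76.4 normalized counts and its log2 fold change 0.15 (0.004 to 0.30, adjusted p = 0.99985 by the DESeq2 Wald test). Olig1 was at a base mean of 45.4 with -0.02 (-0.13 to 0.09), Nkx2-2 at 54.1 with 0.003 (-0.04 to 0.04), Gpr17 at 57.4 with 0.05 (-0.06 to 0.15) and Myrf at 94.8 with 0.01 (-0.14 to 0.15). No other member reached a base mean of 10.

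Enpp6 was at 3.06, and Aspa (0.887), Bcas1 (0.820) and Pdgfra (0.537) were at less than 1 normalized count. Both Neu4 transcripts were listed at 0. For Pdgfra and Bcas1 these values sit far below the e12 levels of the comparison of stages, 68.9 and 44.0, and both genes have several transcripts in the mutant table. Over 4669 genes with more than 1 transcript the median ratio of mutant base mean to e12 level was 0.0118, against 1.42 over 8903 genes with 1 transcript, so the mutant comparison holds few of the reads of such genes. Of these genes 18.6% were at 0, against 0.438% of genes with 1 transcript, so the 0 of Neu4 does not show a lack of expression.

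**Figure D5:**
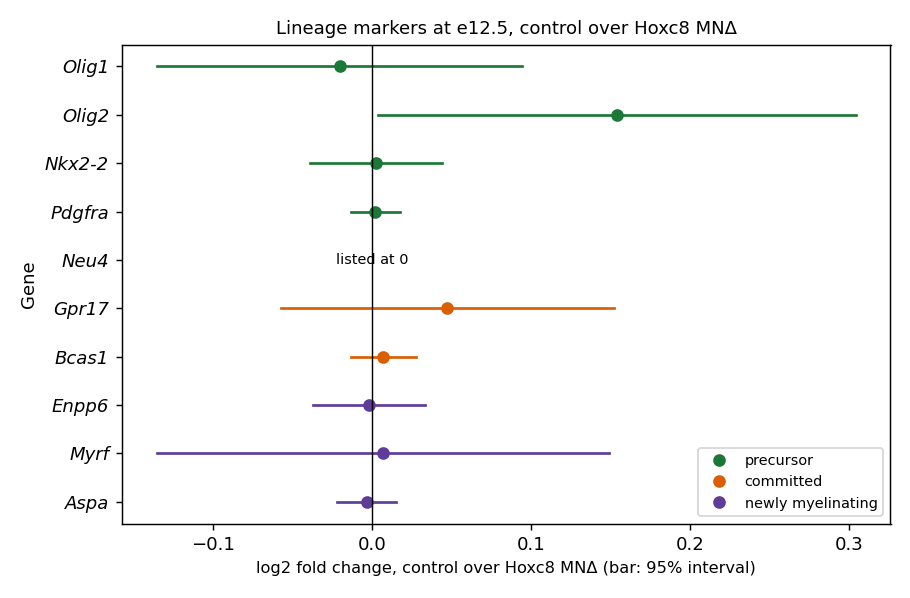
Log2 fold changes at e12.5, control over Hoxc8 MNΔ, with 95% intervals and colours by lineage stage. Only Olig2 (0.15) has an interval that does not reach 0, and Neu4 is listed at 0.

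Fold changes of the mutant table are small throughout and look drawn toward 0, as a prior on fold changes would do, though the sources used here do not say that one was applied. If so, they and their intervals, that of Olig2 included, understate differences between the groups. The largest in size was 0.424, and the median standard error was 0.00683 up to a base mean of 1 and 0.0804 between 100 and 1000, an order opposite to that of the comparison of stages (2.38 and 0.541). Intervals of the low members therefore look narrow while they rest on almost no reads. Genes of other lists under an unadjusted p of 0.05 were all higher in controls. They included Cspg4 (log2 fold change 0.22, 0.08 to 0.37), a proteoglycan of precursors and of pericytes, Hes5 (0.18, 0.02 to 0.35) and the sort gene Mnx1 (0.20, 0.04 to 0.37), each at an adjusted p of 0.99985. Of 5 vascular markers with reads 3 were among them, Cspg4, Kdr (0.13, 0.01 to 0.25) and Rgs5 (0.38, adjusted p = 0.0294, DESeq2). These moved in the same direction as Olig2, and their part in its value was not tested.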

How the data were processed

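Of 18 labelled samples, 5 tables were deposited, of e12 over p8, of each p8 region over the other two, and of control over mutant. Unique reads had been aligned to GRCm38 (mm10) with HISAT, counted with featureCounts and compared with DESeq2 by the authors, with versions not given in the sources used here. In the deposited tables the base mean is a signal, the mean of normalized counts over samples. The log2 fold changes and standard errors are those the authors deposited, as are the Wald score and the p-value. They are the authors' own comparisons, and were used because the tables hold nothing else. Samples per table were grouped by their labels.

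The Benjamini-Hochberg adjustment of p-values ran over every feature of a table, with calls at an adjusted p under 0.05, and for the mutants at a p under 0.05 as in the study's methods. Intervals of 95% come from the standard error. Stage levels were solved with weights of 6 and 3 samples, regional levels by least squares, and divided by kb of exon (GENCODE, GRCm38). The weight of 6 follows the labels and genes with a single read, while the paper states 3 replicates for e12.5 Mnx1-GFP embryos. Counting intervals cover counting error only. Symbols matched for 93.0% of genes and 99.2% of transcripts. Members and the 15 other lists were chosen with earlier results of these data known. From each list up to 4 genes of highest base mean are named, besides all members and, near Pdgfra, Gpr17 and Myrf, the 3 nearest genes. Replicates were pools of cords where the paper states it. The labels do not say for each replicate that animals were separate, so p-values measure the spread between these samples. Steps were tested on simulated data. Alternatives were other adjustments, a base mean of at least 10, re-centring, a fold over 4, another transcript and other sample weights. The scripts ran on scipy 1.17.1, pandas 2.3.3, numpy 2.4.6 and matplotlib 3.10.9 under Python 3.11.15.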

Additional observations from a re-analysis of the deposited data

How the results depend on the processing

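All 10 members were called between the stages, and 0 in each regional comparison, under the adjustment as deposited, a base mean of at least 10 and re-centring, and between the stages also with a fold over 4. In the mutant comparison 1 member (Olig2) was called at an unadjusted p under 0.05, at a base mean of at least 10, with the second transcript and after re-centring (log2 fold change 0.15), and 0 with the adjusted p as deposited or Benjamini-Hochberg over all transcripts. The base mean and transcript settings could not change the call of Olig2, which has 1 transcript there, at a base mean of 76.4. Re-centring shifted the thoracic values by the median of -0.14 and those of the other comparisons by less. The median level of the members was 43.4 at e12 and 2815 at p8 with weights of 6 and 3 samples, 29.0 and 1918 with 3 and 3, and 57.8 and 3675 with 6 and 2. No paired analysis was possible because the tables hold no values per sample, and for that reason no replicate could be left out, the shallow p8 libraries included. Low reads at e12 limit the folds of Neu4, Enpp6 and Aspa.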
